A study of Bos taurus with 4 samples.

Results

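The cytosolic ribosomal protein genes were described across nuclei of 2 fat depots of cattle. Members were the genes whose deposited name begins with RPL, RPS or RPLP and a digit, or with RPSA, leaving out the kinases named RPS6K. The rule matched 85 of 21861 features, which carry 84 names because RPS29 stands on 2 gene identifiers. Of the 85, 76 encode proteins of the cytosolic ribosome: 32 of the small subunit, 41 of the large subunit and 3 of the stalk (RPLP0, RPLP1 and RPLP2). The other 9 are paralogs of such proteins or other matched names: RPL3L, RPL7L1, RPL10L, RPL22L1, RPL26L1, RPL36AL, RPS27L, RPS4Y1 and RPS19BP1. RPS19BP1 encodes a protein that binds RPS19 and RPL7L1 one that acts in the nucleolus during ribosome assembly, so neither is a ribosomal protein in the strict sense. Of 79 core proteins looked for, RPL31 and RPL41 were names of no feature, and 2 lie outside the rule, among them FAU, whose product is a ubiquitin-type fusion. At least 1 UMI was counted for 84 members in kept nuclei, and RPL10L had none.

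The samples were nuclei of subcutaneous fat from the back and of intramuscular fat, taken at slaughter from the same 2 commercial feedlot cattle, with 1 library per animal and depot. They are called SC1 and SC2 (subcutaneous, animals 1 and 2) and IM1 and IM2 (intramuscular, animals 1 and 2). No treatment was given and the animals were managed alike. Their age, breed and diet are unknown per the labels.

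Ribosomal proteins are made in the cytoplasm from messenger RNAs that are among the most abundant of most cells. They are then imported into the nucleolus, where they are joined to ribosomal RNA. The small subunit decodes the messenger, the large subunit joins amino acids, and the acidic stalk proteins recruit the translation factors that use GTP. Because the mature messengers sit mainly on cytoplasmic ribosomes, a preparation of nuclei holds those not yet exported together with whatever cytoplasm adheres. Transcripts encoded by the mitochondrial genome are made outside the nucleus, and their share is a common measure of such carry-over.

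Kept nuclei numbered 874, 6126, 1774 and 63 in SC1, SC2, IM1 and IM2, with 1138601, 4006966, 2717458 and 105481 UMIs and median depths of 849, 518, 1100.5 and 805 UMIs per nucleus. IM2 stood apart, with 63 nuclei and 14 mitochondrially encoded UMIs, so results that rest on it are given with and without it. Muscle fibre-like nuclei were found in both libraries labelled subcutaneous (153 in SC1 and 4043 in SC2) and none was named in those labelled intramuscular. Genes of the muscle fibre list took 1.37% to 4.11% of UMIs in the other named types of SC1 except satellite-like nuclei, and 7.10% to 13.6% in those of SC2, against at most 0.0108% in types of at least 10 nuclei of the intramuscular libraries. In all, 5 barcodes were shared by a pair of libraries. The libraries of a depot came from separate animals, and no doublets were removed.

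Ribosomal protein genes took 4.92% of UMIs in SC1 (56049 UMIs; 95% interval 4.88 to 4.96), 4.74% in SC2 (189830 UMIs; 4.72 to 4.76), 3.45% in IM1 (93754 UMIs; 3.43 to 3.47) and 0.317% in IM2 (334 UMIs; 0.284 to 0.352). By these sums the 2 subcutaneous libraries lay close together, IM1 was lower and IM2 was lower again by far. The median share per nucleus was 3.36% in SC1, 4.52% in SC2, 3.37% in IM1 and 0.305% in IM2. By that measure IM1 lay with SC1, and SC2 was higher. Adipocyte-like nuclei, described below, gave 1706350 of the 2717458 UMIs of IM1. Each nucleus of SC1, SC2 and IM1 held at least 1 such UMI, and the median nucleus held 29, 24 and 34. In IM2, 57 of 63 nuclei held one (90.5%), with a median of 3. At an equal depth of 500 UMIs per nucleus the share of nuclei with a ribosomal protein UMI was 100% in the first 3 libraries and 74% in the 50 IM2 nuclei deep enough. The mean number per nucleus was then 21.4, 22.3, 20.7 and 1.52.

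Types of nuclei differed in this share, and adipocyte-like nuclei were the lowest named type in SC1, SC2 and IM1. Types were clusters of nuclei formed without ribosomal protein and mitochondrially encoded genes, named from marker genes and called "-like" for that reason. These shares are a description with counting intervals and no test, since nuclei of 1 library are not replicates. Adipocyte-like nuclei, with the lipid droplet gene PLIN1 and the lipase gene LIPE among their leading genes, held few ribosomal protein UMIs. These took 1.85% of their UMIs in SC1 (1.80 to 1.90; 143 nuclei), 2.76% in SC2 (2.61 to 2.91; 48 nuclei), 1.70% in IM1 (1.68 to 1.72; 757 nuclei) and 0.319% in IM2 (0.286 to 0.356; 56 nuclei). Blood endothelial-like nuclei, the lining cells of vessels, had the highest summed share among named types with at least 10 nuclei in SC1, SC2 and IM1. Their shares were 8.63% in SC1 (8.53 to 8.72; 197 nuclei), 5.34% in SC2 (5.27 to 5.41; 451 nuclei) and 8.85% in IM1 (8.77 to 8.93; 357 nuclei). In SC2 this rank rested on the sum: the median nucleus held 3.97% in blood endothelial-like, 5% in muscle fibre-like and 4.55% in macrophage-like nuclei. The 9 satellite-like nuclei of SC1 held 9.09% (8.45 to 9.76), above the blood endothelial-like share there.

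The remaining types lay between. Progenitor-like nuclei, the fibroblast-like cells that can form adipocytes, held 4.02%, 3.46% and 4.09% in SC1, SC2 and IM1. Pericyte/smooth muscle-like nuclei, from the vessel wall, held 4.89%, 4.43% and 5.31%. Macrophage-like nuclei held 4.01%, 4.81% and 3.93%, from 52, 34 and 26 nuclei. Muscle fibre-like nuclei held 4.54% in SC1 and 5.12% in SC2, close to the share of satellite-like nuclei in SC2 (4.54%). The 2 clusters left unnamed held 2.48% in SC1 and 3.43% in SC2.

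**Figure D1:**
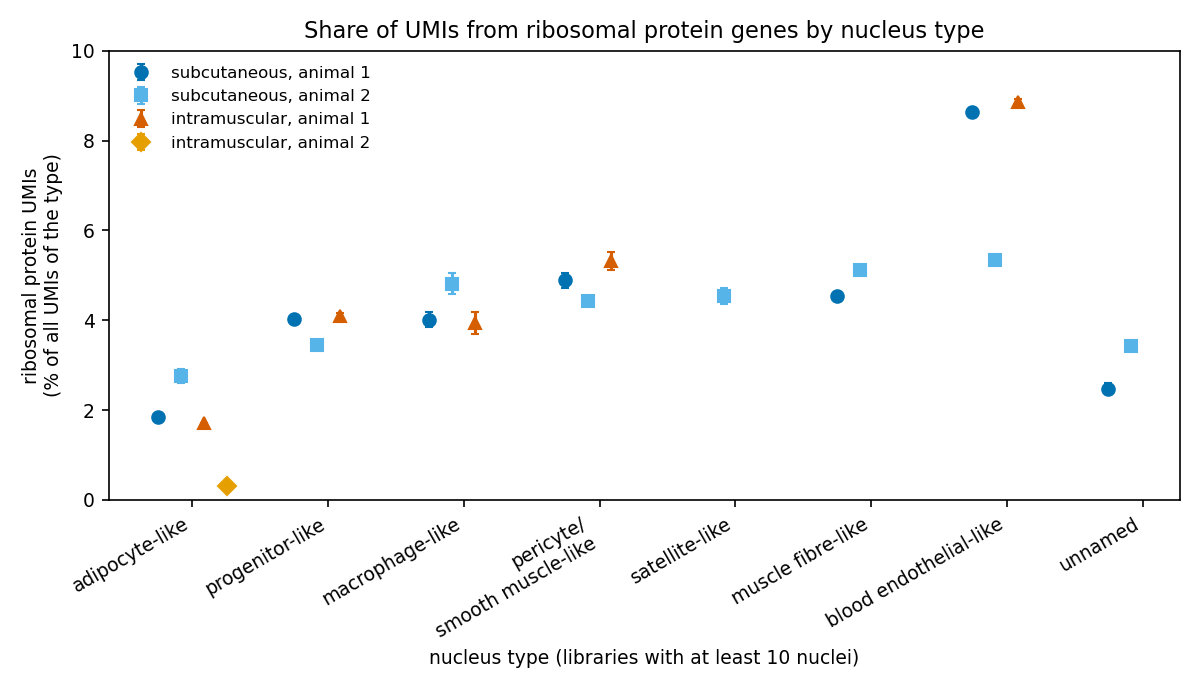
Share of UMIs from ribosomal protein genes (vertical axis, % of all UMIs of the type) by nucleus type (horizontal axis) and library (colour and symbol), with exact 95% counting intervals. Adipocyte-like nuclei lie lowest, from 0.319% to 2.76%, and blood endothelial-like nuclei highest, from 5.34% to 8.85%.

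The contrast between the endothelial and adipocyte types ran through nearly all members rather than a few. Of members with at least 20 UMIs in the pair, 79 of 80 in SC1, 76 of 79 in SC2 and 81 of 82 in IM1 had a higher CPM (UMIs per 1000000 UMIs of the type) in blood endothelial-like than in adipocyte-like nuclei. The median log2 ratios, with 10 CPM added, were 2.12, 0.91 and 2.32. Progenitor-like nuclei exceeded adipocyte-like ones in 79 of 80, 59 of 78 and 80 of 82 members, with medians of 1.15, 0.32 and 1.24. The share of all genes higher in these types was not computed, so the counts describe the members alone. At 500 UMIs per nucleus the mean number of ribosomal protein UMIs was 36.3 in SC1, 23.1 in SC2 and 40.4 in IM1 for blood endothelial-like nuclei, against 9.34, 13.5 and 10.1 for adipocyte-like nuclei. In SC2 muscle fibre-like nuclei had 24.3 at that depth, above the blood endothelial-like mean. Thinning keeps the expected share of each nucleus, so these means do not test depth. They weight nuclei of at least 500 UMIs equally, unlike the summed shares. Split at the median depth of each type, IM1 adipocyte-like nuclei of lower depth (median 1389 UMIs) held 2.27%. IM1 blood endothelial-like nuclei of higher depth (median 1463 UMIs) held 9.18%. In SC2 the nuclei of higher depth of these types held 2.47% (median 1094.5 UMIs) and 5.63% (median 940 UMIs). The part of depth in the contrast was not tested.

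Blood endothelial-like nuclei came in 3 clusters that differed among themselves. Cluster 15, led by GRP and by GPIHBP1, the capillary protein that holds lipoprotein lipase, had 10.9% ribosomal protein UMIs in SC1 (61 nuclei) and 8.85% in IM1 (353 nuclei), and only 3 SC2 nuclei. Cluster 12, with the artery gene GJA5 among its leading genes, had 7.34% in SC1 and 4.63% in SC2. Cluster 13, with EMCN and VWF among its markers, had 6.44% and 5.85%. Which clusters make up the type therefore differs between the libraries: clusters 12 and 13 hold 196 and 252 of its 451 nuclei in SC2, and cluster 15 holds 353 of its 357 in IM1. Adipocyte-like nuclei came from cluster 0 (128 nuclei in SC1, 48 in SC2, 9 in IM1 and 56 in IM2) and cluster 10 (15 in SC1 and 748 in IM1). In SC1, where both could be measured, their shares were 1.87% and 1.75%.

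The ribosomal protein share was higher in nuclei with a higher mitochondrially encoded share. For this description it was taken of the UMIs that are not mitochondrially encoded, which removes mitochondrial UMIs from its denominator. The denominators of both shares still overlap. In IM1 it was 1.91% in nuclei with up to 1% mitochondrial UMIs, 4.33% from 1 to 2%, 6.19% from 2 to 5% and 10.5% from 5 to 10%. The same bands gave 4.35%, 4.99%, 7.12% and 8.32% in SC1, and 4.04%, 4.73%, 5.78% and 7.12% in SC2. Median depth differed between the bands, from 2271 UMIs per nucleus in the lowest to 600 in the highest of IM1, and from 1102 to 686 in SC1. Across nuclei, Spearman's rho between the shares was 0.43 in SC1 (874 nuclei), 0.40 in SC2 (6126) and 0.77 in IM1 (1774), and that between the mitochondrial share and depth was -0.31, -0.20 and -0.79. Nuclei of a library share its free RNA and its depth limits, so these values describe the libraries and carry no p. The part of depth in the relation was not tested.

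Within 1 type the relation was present to different degrees. Adipocyte-like nuclei of IM1 went from 1.5% to 2.21% to 4.06% over the first 3 bands, and those of SC1 from 1.53% to 2.69% over the first 2. Muscle fibre-like nuclei of SC1 went from 2.90% to 4.29% to 5.96%, and those of SC2 from 4.43% to 7.14% over 4 bands. That type joins clusters that differ in both shares. In SC1 cluster 1 (48 nuclei) had 2.31% ribosomal protein and 1.34% mitochondrially encoded UMIs, and cluster 4 (52 nuclei) 5.48% and 2.66%. In SC2 cluster 1 (143 nuclei) had 2.82% and 1.32%, and cluster 4 (861 nuclei) 5.51% and 2.82%. The part of cluster makeup in the relation was not tested. Blood endothelial-like nuclei of IM1 had 9.18%, 9.12% and 8.68% in the first 3 bands and 11.5% in the 29 nuclei of the fourth. Over the first 3 bands those of SC1 had 8.55%, 8.09% and 10.7%, and those of SC2 5.14%, 5.30% and 7.30%. Spearman's rho was 0.65 and 0.63 in adipocyte-like nuclei of SC1 and IM1, 0.62 and 0.32 in muscle fibre-like nuclei of SC1 and SC2, and 0.28, 0.35 and 0.29 in blood endothelial-like nuclei of SC1, SC2 and IM1.

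Types also differed at the same mitochondrial share. In the 1 to 2% band of IM1 the ribosomal protein share was 2.21% in adipocyte-like, 3.16% in macrophage-like, 3.52% in progenitor-like, 5.32% in pericyte/smooth muscle-like and 9.12% in blood endothelial-like nuclei. In that band of SC1 it was 2.69% in adipocyte-like and 8.09% in blood endothelial-like nuclei. The types of SC2 lay closer in that band. There it was 3.41% in progenitor-like, 3.45% in adipocyte-like (17 nuclei), 4.53% in macrophage-like, 5.01% in muscle fibre-like and 5.30% in blood endothelial-like nuclei. The number of ribosomal protein UMIs per mitochondrially encoded UMI was 7.17 in blood endothelial-like nuclei of SC1, 4.55 in those of SC2 and 4.02 in those of IM1. In adipocyte-like nuclei it was 2.38, 3.63 and 2.16, and in IM2, on 12 mitochondrially encoded UMIs, 27 (15.2 to 52.8). Progenitor-like and macrophage-like nuclei of IM1 had 1.84 and 1.89, and muscle fibre-like nuclei had 2.23 in SC1 and 2.67 in SC2. Adipocyte-like nuclei were thus not the lowest type on this measure in SC1, SC2 or IM1. Over the 19 sums of a type in a library, the shares had a Spearman's rho of 0.63 (Pearson's r 0.61), and without IM2 a rho of 0.57 (r 0.48, 18 sums). These sums share libraries and animals, so no p is given.

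**Figure D2:**
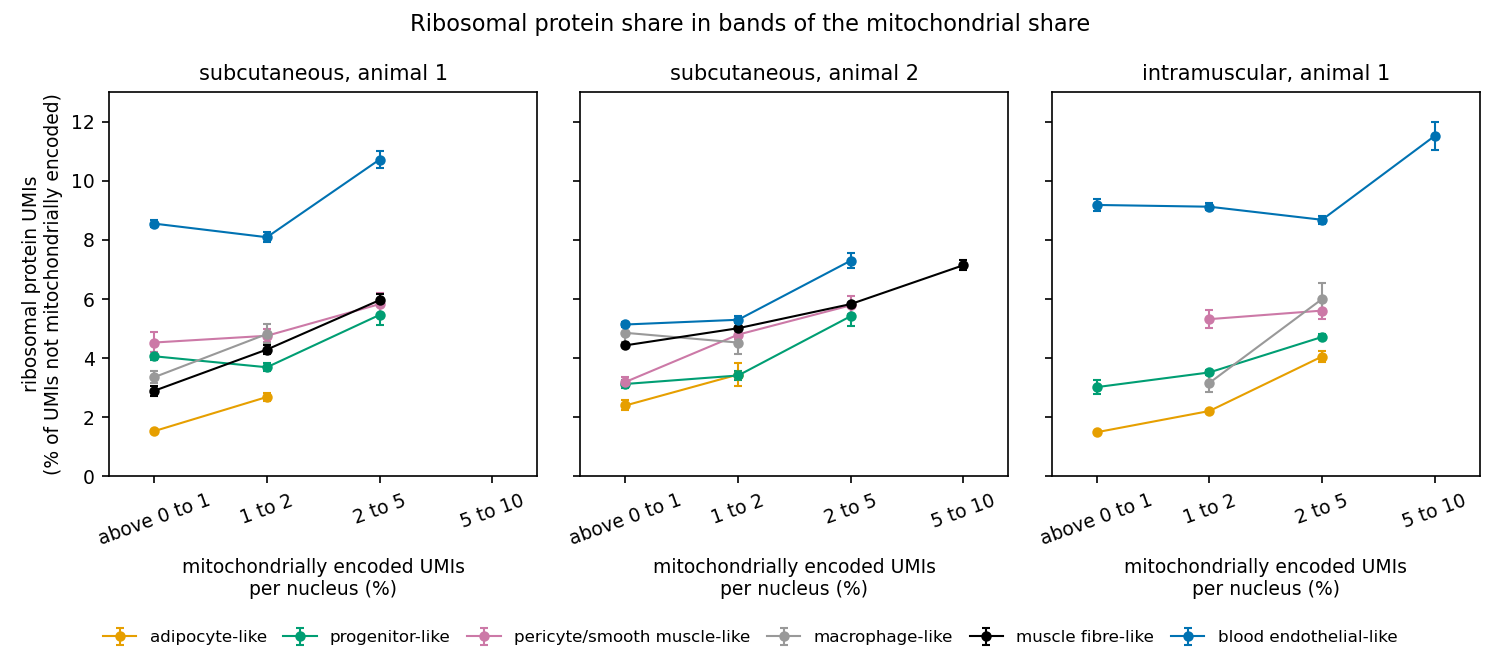
Ribosomal protein UMIs (vertical axis, % of UMIs not mitochondrially encoded) in bands of the mitochondrially encoded share per nucleus (horizontal axis, %), for nucleus types (colour) in 3 libraries (panels), with exact 95% intervals and bands of at least 10 nuclei. Adipocyte-like nuclei of IM1 climb from 1.5% to 4.06%, while blood endothelial-like nuclei of IM1 stay between 8.68% and 9.18% over the same bands. Blood endothelial-like nuclei of SC1 and SC2 reach 10.7% and 7.30% in the 2 to 5% band, from 8.55% and 5.14% in the lowest.

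Members are described next by role. The stalk protein gene RPLP1 had the highest mean CPM of all members, with 2251 CPM in SC1, 3539 in SC2, 1510 in IM1 and 56.9 in IM2 (6 UMIs). Its partner RPLP2 had 649, 561, 845 and 37.9 CPM, and RPLP0, which anchors both to the ribosome, 642, 792, 470 and 37.9. RPLP1 was thus highest and RPLP2 lowest in SC2 among the first 3 libraries. Stalk genes took 7.20% of ribosomal protein UMIs in SC1, 10.3% in SC2, 8.19% in IM1 and 4.19% in IM2. By type in SC1 that share was 10.4% in muscle fibre-like nuclei (9.69 to 11.1) and 6.61% in blood endothelial-like nuclei (6.33 to 6.91). In SC2 the same types had 10.7% and 8.12%. Progenitor-like, pericyte/smooth muscle-like and adipocyte-like nuclei had 10.3%, 10.2% and 10.1% in SC2, near the muscle fibre-like value. In SC1 they had 6.29%, 6.36% and 7.57%.

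Small subunit genes took 44.4%, 42.1%, 43.9% and 36.2% of ribosomal protein UMIs in SC1, SC2, IM1 and IM2, and large subunit genes 47.2%, 45.8%, 46.5% and 47.6%. Of the 8 members with the highest mean CPM, 5 belong to the small subunit. RPS28, a small protein near the messenger exit site, had 1606 CPM in SC1, 1422 in SC2, 924 in IM1 and 9.48 in IM2. RPS3A had 1145, 995, 760 and 47.4 CPM. RPS12 had 1222, 783, 785 and 85.3 CPM. RPS2 differed in order, with 879 CPM in SC1, 1510 in SC2, 501 in IM1 and 19 in IM2. In the large subunit, RPL10, a protein added late in assembly, had 1185, 1548, 609 and 47.4 CPM, and RPL18 had 873, 943, 563 and 66.4. CPM is not divided by gene length, so the rank among genes is one of UMIs and not of transcripts per length.

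No single member dominated. The top 8 took 21.2% of ribosomal protein UMIs in SC1, 25.1% in SC2 and 20.2% in IM1, and 27, 24 and 27 members were needed to reach 50% of them. The order of the 85 members by CPM was alike in the first 3 libraries, with a Spearman's rho across members of 0.95 between SC1 and IM1, 0.89 between SC1 and SC2, and 0.84 between SC2 and IM1. Against IM2 it was 0.25 to 0.35. In IM2 16 members were at 0 and 78 had under 10 UMIs, where 3 UMIs amount to 28.4 CPM. Members are not independent points, so these values carry no p.

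**Figure D3:**
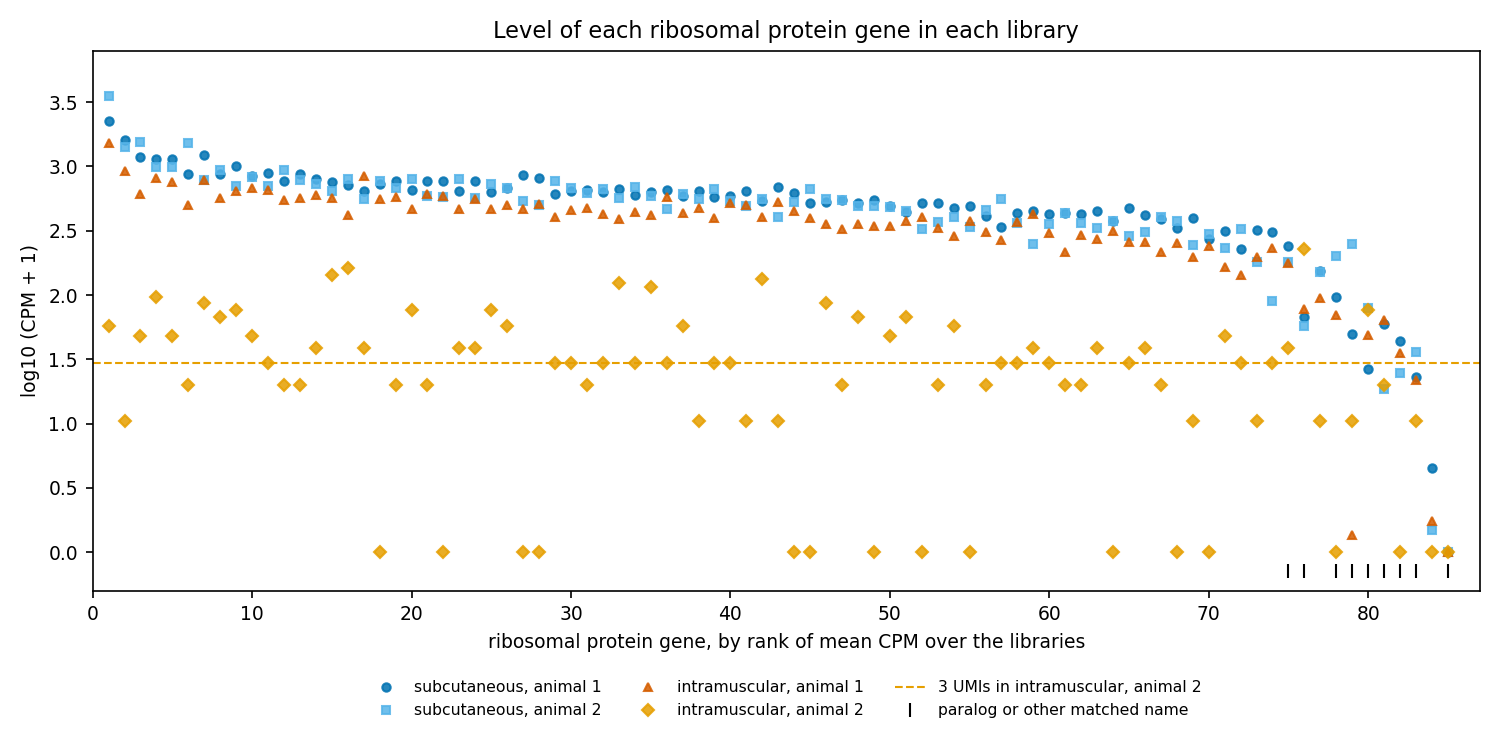
Level of each of the 85 ribosomal protein genes (vertical axis, log10 of CPM + 1) in the 4 libraries, ordered by mean CPM (horizontal axis, rank); ticks at the bottom mark the 9 members outside the core and the dashed line 3 UMIs in IM2. IM2 lies below the other libraries for most members, with 16 at 0, and RPL7L1 (rank 76) is an exception.

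Of the 9 members outside the core, most were low. RPL36AL, a near copy of RPL36A, had the highest mean CPM of them, with 240, 180, 177 and 37.9 CPM in SC1, SC2, IM1 and IM2, and took 60.9%, 54.4% and 65.3% of the UMIs of that pair in the first 3 libraries. RPL22L1, the paralog of RPL22, had 58.8, 17.7, 62.6 and 19 CPM. It took 23.6% of its pair in adipocyte-like nuclei of IM1 (19.5 to 28; 96 UMIs beside 311 of RPL22) and 7.88% in blood endothelial-like nuclei of the same library (5.55 to 10.8). In SC1 it took 11.2% (5.52 to 19.7) and 10.3% (7.23 to 14.2) in these types. In SC2 it took 7.69% (1 UMI beside 12 of RPL22) and 6.88%. The intervals of these types overlapped in SC1 and in SC2, so RPL22L1 showed this contrast in IM1 alone. In muscle fibre-like nuclei it took 1.12% in SC1 (0.0284 to 6.10) and 1.55% in SC2 (1.00 to 2.28).

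RPS27L, a paralog of RPS27 known as a target of p53, had 95.7 CPM in SC1, 202 in SC2, 69.6 in IM1 and 0 in IM2. It took 30% of its pair in muscle fibre-like nuclei of SC1 (21.6 to 39.5) and 29.5% in those of SC2 (27.5 to 31.5), against 8.82% and 18.2% in blood endothelial-like nuclei. RPL26L1 had 43, 23.7, 34.2 and 0 CPM, and RPS4Y1, a paralog of RPS4X, had 22, 35.2, 21 and 9.48. RPS19BP1 had 25.5, 78.4, 47.5 and 75.8 CPM. Since near-identical copies can split or lose reads in counting, shares within a pair are uncertain, though the counting was the same for each type. In the gene table at hand, 11 of the 84 members found there overlap another gene, among them RPS25, RPS27, RPSA, RPS9 and RPL35, whose UMIs may include those of the neighbour.

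RPL3L is the striated muscle paralog of the large subunit protein RPL3, which it replaces in mature muscle fibres. RPL3L had 49.2 CPM in SC1 (56 UMIs), 250 in SC2 (1001 UMIs), 0.368 in IM1 (1 UMI) and 9.48 in IM2 (1 UMI). RPL3 had 309, 88.3, 231 and 28.4 CPM in the same order. Among the first 3 libraries RPL3L was highest and RPL3 lowest in SC2, while both were lower in IM1 than in SC1. In muscle fibre-like nuclei RPL3L took 63.4% of the pair's UMIs in SC1 (46.9 to 77.9; 26 UMIs beside 15 of RPL3) and 83.6% in SC2 (81 to 85.9; 762 beside 150). In blood endothelial-like nuclei, the lowest type in SC1 and SC2, it took 3.41% in SC1 (1.38 to 6.91), 28% in SC2 (21.3 to 35.4) and 0% in IM1 (0 beside 312 of RPL3, interval up to 1.18). Other non-muscle types of SC2 had 64.9% (progenitor-like, 47.5 to 79.8), 58.3% (adipocyte-like), 52.9% (pericyte/smooth muscle-like) and 30% (macrophage-like). In SC1 these types had 3.70%, 13.5%, 6.67% and 11.8% in the same order.

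RPL3L was also counted in types that are not muscle in the subcutaneous libraries, where it moved with the muscle marker genes. In SC2 there were 12.5 RPL3L UMIs per 10000 UMIs of the muscle fibre list in muscle fibre-like nuclei (11.6 to 13.4), 12.6 in blood endothelial-like (9.27 to 16.8), 12.2 in progenitor-like (7.85 to 18.2) and 9.16 in pericyte/smooth muscle-like nuclei (5.43 to 14.5). In SC1 the values were 8.52 in muscle fibre-like (5.57 to 12.5), 15.1 in blood endothelial-like (6.08 to 31.1) and 7.12 in progenitor-like nuclei (0.862 to 25.7). Within each library the intervals of these types overlapped.

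**Figure D4:**
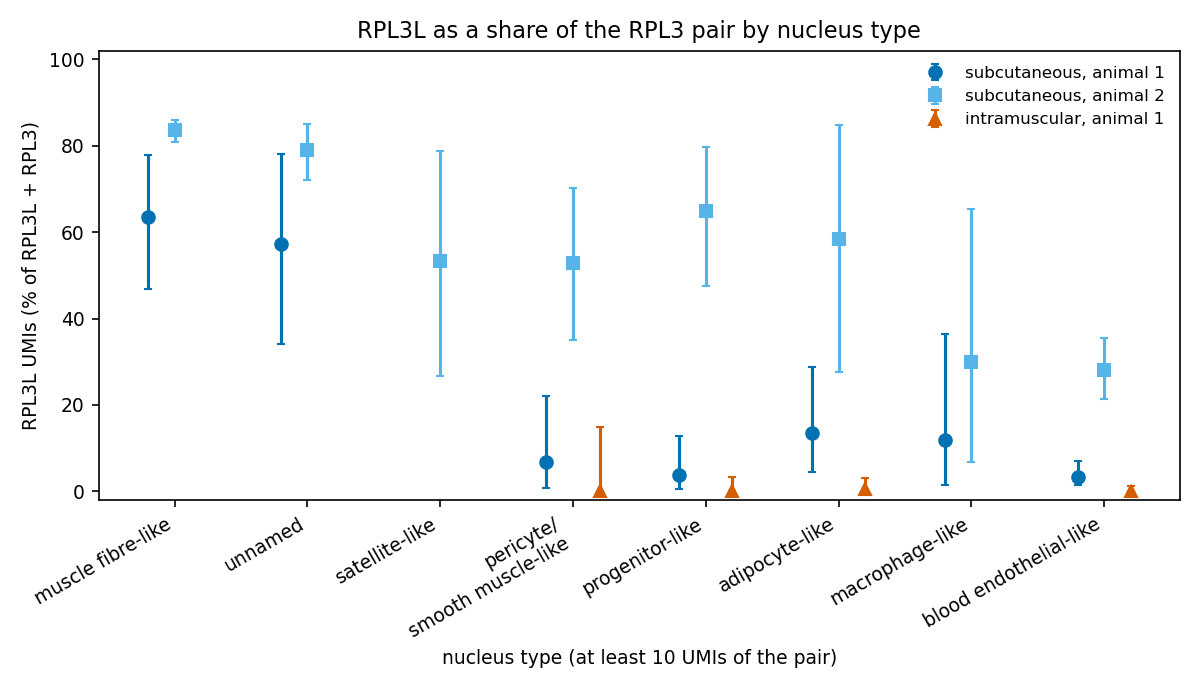
RPL3L as a share of the UMIs of RPL3L and RPL3 together (vertical axis, %) by nucleus type (horizontal axis) and library (symbol), with exact 95% intervals, for types with at least 10 UMIs of the pair. Muscle fibre-like nuclei reach 63.4% in SC1 and 83.6% in SC2, and blood endothelial-like nuclei lie at 3.41%, 28% and 0% in SC1, SC2 and IM1. Progenitor-like nuclei lie at 3.70% in SC1, 64.9% in SC2 and 0% in IM1.

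Other members also stood higher or lower in muscle fibre-like than in non-muscle nuclei of the same library. Over 77 members with at least 100 UMIs in each of the libraries with fibres, the ratio of CPM was above 1 in both for 17, below 1 in both for 26 and on different sides for 34. The median ratio was 0.86 in SC1 and 1.11 in SC2. RPL3 was the lowest, at 0.249 in SC1 (15 UMIs in fibre-like and 325 in non-muscle nuclei) and 0.286 in SC2 (150 and 162 UMIs). RPS4X had 0.545 and 0.665, RPL36AL 0.533 and 0.805, and RPS19 0.560 and 0.802. At the other end RPS27L had 2.47 and 1.58, RPL27 1.75 and 1.45, RPS2 1.53 in both and RPLP1 1.55 and 1.38. RPL3L, with too few UMIs in SC1 to enter this ranking, was not among these. The ends were chosen by these same values, so they are a description. Across the 77 members, Spearman's rho between the ratios of the libraries was 0.75.

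Adipocyte-like nuclei gave the one type in which IM2 could be set beside the other libraries. Ribosomal protein genes took 0.319% of their UMIs in IM2 and 1.70% in IM1, a ratio of 5.33 (counting interval 4.78 to 5.97). The ratio to IM2 was 5.80 (5.18 to 6.51) in SC1 and 8.63 (7.63 to 9.78) in SC2. Cluster 10 held 748 of the 757 IM1 nuclei, while cluster 0 held the 56 of IM2, the 48 of SC2 and 128 of the 143 of SC1. The part of cluster in the ratios of IM1 to IM2 was not tested. Other gene lists gave other ratios of IM1 to IM2. Mitochondrially encoded genes had 66.5 (38.1 to 129), nuclear-encoded respiratory chain genes 3.21 (2.80 to 3.71), translation factors 1.70 (1.48 to 1.95) and mitochondrial ribosome genes 1.40 (1.21 to 1.62). Genes of ribosome biogenesis, whose proteins act in the nucleolus and whose list is led by the nucleolin gene NCL, had 0.464 (0.407 to 0.531), which means that they took more of the UMIs in IM2. Genes that control growth and translation had 0.653 (0.555 to 0.773), while for SC1 and SC2 the ratio to IM2 was 0.852 (0.705 to 1.03) and 0.914 (0.676 to 1.23), intervals that include 1.

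Members of IM2 differed in the same contrast. Of 24 members with at least 5 UMIs in its adipocyte-like nuclei, 22 had a lower CPM in IM2 than in IM1, and for 18 the counting interval of the ratio lay above 1. This filter on IM2 counts favours members that are high there. It left out 45 members with 1 to 4 UMIs and 16 at 0, of which 12 had at least 100 CPM in IM1. The share of all genes lower in IM2 under the same filter was not computed. RPS12, with 8 UMIs in IM2, had a ratio of IM1 to IM2 of 4.75 (2.40 to 11). RPSA, which also serves as a laminin receptor, had 2.20 (1.30 to 4.05). RPL7A had 1.24 (0.766 to 2.16) and RPL14 1.17 (0.672 to 2.23), intervals that include 1. RPL7L1 had 0.389 (0.247 to 0.640), with 22 UMIs in IM2 and 144 in IM1, so that it was higher in IM2. It was the member with the most UMIs in IM2, with 24 over all nuclei or 228 CPM, against 66.7, 56.2 and 76.5 CPM in SC1, SC2 and IM1. Its partner RPL7 was at 0 in IM2, where 3 UMIs in adipocyte-like nuclei would be 29.6 CPM, and had 283 UMIs in adipocyte-like nuclei of IM1. RPL7A, RPL14 and RPSA are core members outside the rule for genes to name, picked with these values in view, and a comparison of 2 libraries says nothing of the depots.

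**Figure D5:**
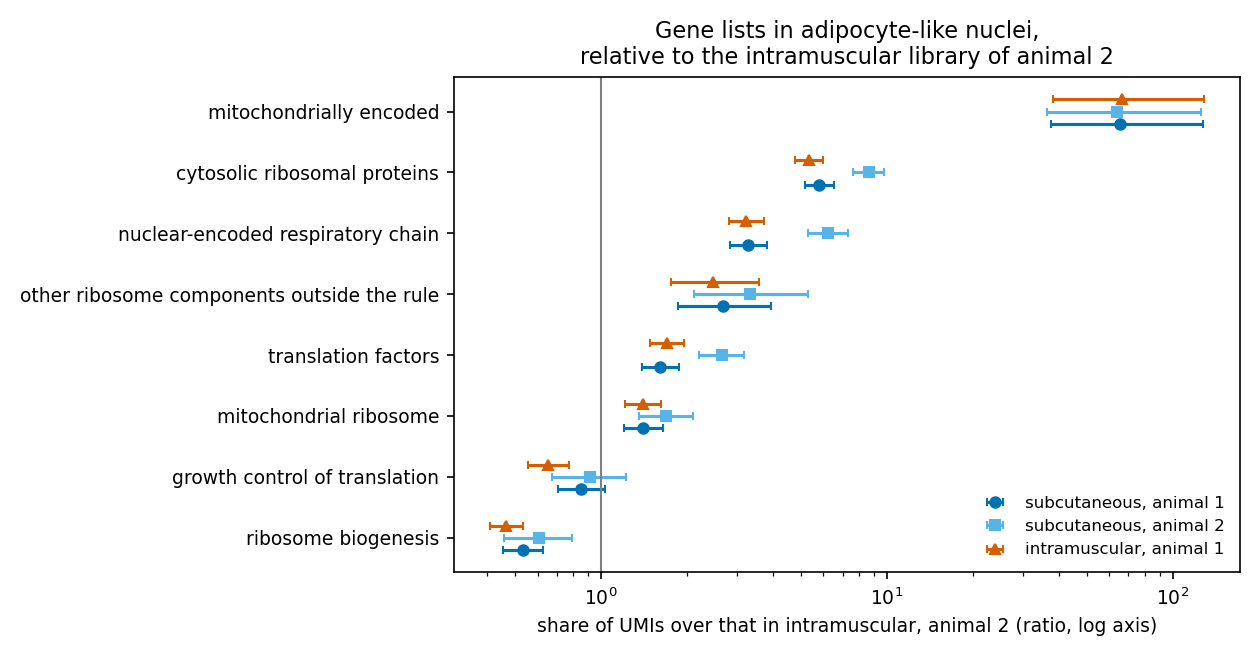
Share of UMIs taken by gene lists (vertical axis) in adipocyte-like nuclei of 3 libraries, as a ratio to the share in IM2 (horizontal log axis), with 95% counting intervals. The ratio for IM1 is 66.5 for mitochondrially encoded genes, 5.33 for cytosolic ribosomal proteins and 0.464 for ribosome biogenesis. IM1 nuclei are mainly of cluster 10 and IM2 nuclei of cluster 0.

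The design compares intramuscular with subcutaneous fat, with the library as the replicate. Over all nuclei, subcutaneous libraries had a mean ribosomal protein share of 4.83% ± 0.131 (SD, n = 2) and intramuscular ones 1.88% ± 2.22 (SD, n = 2). This difference, -2.95 percentage points, had an exact two-sided permutation p of 0.333, the smallest that 6 arrangements allow. It was -1.47 points within animal 1 and -4.42 within animal 2, and -1.38 without IM2. As a mean over nuclei the share was 4.34% in SC1, 4.70% in SC2, 4.14% in IM1 and 0.358% in IM2. In adipocyte-like nuclei the means were 2.30% ± 0.638 (SD, n = 2) and 1.01% ± 0.978 (SD, n = 2), a difference of -1.29 points (exact permutation p = 0.333). It was -0.15 points within animal 1 and -2.44 within animal 2, and -0.602 without IM2.

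IM2 held too few progenitor-like (5) and blood endothelial-like nuclei (1), so those comparisons set 2 subcutaneous libraries against IM1. The progenitor-like share was 3.74% ± 0.399 (SD, n = 2) against 4.09%, a difference of 0.354 points (exact permutation p = 0.667). The blood endothelial-like share was 6.98% ± 2.33 (SD, n = 2) against 8.85%, a difference of 1.87 points (exact permutation p = 0.667) that was 0.22 points within animal 1. In cluster 15 alone, the cluster that holds nearly all of the type in IM1, the sign turned: IM1 was 2.08 percentage points below SC1 (-2.08).

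Gene by gene, UMIs were summed per library and tested with edgeR's quasi-likelihood test, with p-values adjusted by Benjamini-Hochberg over all genes tested and called below 0.05. Over whole-library sums, which mix the types, 1 of 83 members tested was called, against 1.53% of all 11143 genes (0.0538% higher and 1.47% lower). That member was RPL3L, at a log2 fold change of intramuscular over subcutaneous of -8.18 (SE 1.88, edgeR adjusted p = 0.0485). With the libraries of a depot pooled, RPL3L was 290-fold higher in the subcutaneous ones (counting interval 80.1 to 2397; 1057 UMIs against 2). SC2 gave 1001 of these 1057 UMIs, and the interval leaves out the spread between libraries and animals. By library, RPL3L had 49.2 and 250 CPM in SC1 and SC2 against 0.368 and 9.48 in IM1 and IM2. The call was lost without SC2 (edgeR adjusted p = 0.0927), without IM1 (0.112) and without muscle fibre-like and satellite-like nuclei (0.113), as well as in nuclei with at least 500 genes (0.054) or under 2% mitochondrial UMIs (0.0596). The log2 fold change was then -5.55, -5.23, -6.97, -7.40 and -7.59 in that order, and without muscle fibre-like and satellite-like nuclei edgeR called 0 of 10388 genes (840 at an unadjusted p below 0.05). Adjusted p-values of RPL3L over 12 alternatives ranged from 6.12e-05 to 0.169.

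The other 82 members were not called over whole-library sums. Of the 83, 82 had a negative fold change, with a median of -2.02 against -0.16 for all genes, and 65 had a lower CPM in each intramuscular than in each subcutaneous library, against 15.1% of all genes. With scaling by library totals in place of TMM the median was -1.27 for the members and 0.42 for all genes. Fold changes are therefore best read against that of all genes. Without IM2 the members' median was -1.07.

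In adipocyte-like nuclei none of 77 members tested was called by edgeR, against 1.15% of all 4419 genes, and 1 had an unadjusted p below 0.05. DESeq2 called none either. The 3 members with the smallest p were RPL4, RPS3 and RPL13, all core proteins. RPL4 had 165 and 306 CPM in SC1 and SC2 against 77.4 and 49.3 in IM1 and IM2 (log2 fold change -1.68, SE 0.706, edgeR adjusted p = 1.00). RPS3 had 143 and 328 against 85.6 and 19.7 CPM, and RPL13 had 213 and 372 against 138 and 59.2. For each of the 3 the depots did not overlap, which was so, in the lower direction, for 46 of 77 members and 19% of all genes. The members' median log2 fold change was -0.93 against 0.06 for all genes, and -0.22 without IM2. Setting IM2 alone against SC1 and SC2, edgeR called 57 of 76 members lower, against 7.39% of all 3476 genes.

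In progenitor-like nuclei 0 of 81 members tested were called by edgeR, as were 0% of all 5218 genes, and 1 member, RPL3L, had an unadjusted p below 0.05 (by DESeq2 0 members and 79 genes). RPL3L had 11 CPM in SC1 (2 UMIs), 155 in SC2 and none in IM1, where 3 UMIs are 6.57 CPM. The SC1 value was 1.67-fold that of 3 UMIs in IM1, a ratio that leaves out the counting error of the SC1 UMIs. RPLP2 had 495 and 412 CPM against 1189, and RPS27L had 82.5 and 135 against 54.7. IM1 lay above both subcutaneous libraries for 36 members (32.9% of all genes) and below both for 14 (30%). The members' median log2 fold change was 0.08 against -0.08 for all genes. In blood endothelial-like nuclei 1 of 83 members was called by edgeR, against 6.54% of all 7697 genes (2.56% higher and 3.98% lower). It was again RPL3L, with 21.1 CPM in SC1 (7 UMIs), 118 in SC2 and none in IM1. The SC1 value was 3.36-fold that of 3 UMIs in IM1, again without the counting error of the SC1 UMIs. RPL3L was not called by DESeq2, without the gene filter, or in nuclei with at least 500 genes or under 2% mitochondrial UMIs. Of the 83 members, 78 had a positive fold change, with a median of 0.42 against -0.05 for all genes. Adipocyte marker genes took 0.781% and 0.0483% of UMIs of this type in SC1 and SC2 and 3.04% in IM1, and their part in these values was not tested. IM1 lay above both subcutaneous libraries for 48 members, against 32.5% of all genes, and below both for 3, against 38.5%. Cluster 15 held 61 of the 197 blood endothelial-like nuclei of SC1 and 3 of the 451 of SC2. The part of that makeup in these fold changes was not tested. The members' medians in progenitor-like and blood endothelial-like nuclei are the same with RPL3L set at its ratio to 3 UMIs.

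Lists of related genes are given for the same fits. None of 18 translation factors was called in any of the 4 fits, and their median log2 fold change was -2 in whole-library sums and -0.41 in adipocyte-like nuclei. TPT1, which binds elongation factors, had 2359, 6315, 1599 and 209 CPM in SC1, SC2, IM1 and IM2, and the elongation factor EEF1A1 had 1162, 292, 781 and 37.9. Of the 3 components outside the rule, FAU had 581, 474, 443 and 19 CPM, so it was lowest in IM2, as most members were. Among 20 ribosome biogenesis genes none was called, with medians of -0.06 over 19 tested in whole-library sums and 0.21 over 11 in adipocyte-like nuclei. NCL had 241, 173, 261 and 275 CPM, and UBTF, a factor for transcription of ribosomal RNA genes, 174, 79.9, 149 and 228. Their levels in IM2 thus lay with or above those of the other libraries, unlike those of the ribosomal protein genes.

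Among 12 genes that control growth and translation, MYC was higher in blood endothelial-like nuclei of IM1 and no other was called in any fit. LARP1, which binds the 5′ ends of ribosomal protein messengers, had 209, 107, 174 and 408 CPM in whole libraries, and MYC had 83.4, 5.49, 331 and 85.3. Of 13 mitochondrially encoded genes, ND6 was called higher in blood endothelial-like nuclei, and the medians were -1.76 in whole-library sums and 0.91 in that type. COX3 had 2786, 3335, 2846 and 19 CPM and COX1 had 2456, 3359, 2532 and 47.4. Mitochondrial ribosome genes (76, led by MRPL23 and MRPS16) had no call in any fit. MRPL23 had 156, 154, 208 and 209 CPM and MRPS16 had 86.1, 187, 52.6 and 9.48. Of 80 nuclear-encoded respiratory chain genes, the muscle subunit gene COX6A2 was called lower in whole-library sums and, with COX8B, in adipocyte-like nuclei, where muscle marker genes took 1.37% and 7.10% of UMIs in SC1 and SC2 and 0.0024% and 0.0108% in IM1 and IM2, whose part in these calls was not tested. In blood endothelial-like nuclei COX6A2, COX7A1, COX8B and NDUFA4L2 were called, 3 lower and 1 higher. NDUFA4 had 489, 1718, 279 and 0 CPM and UQCR11 had 296, 834, 158 and 19.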

How the data were processed

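Single-nucleus RNA was measured in 4 libraries. Nuclei were freed by Dounce homogenisation and loaded on a 10x Genomics platform, per the labels' protocols. Values in the deposited files are unnormalised UMI counts, which the authors made with Cell Ranger 6.0.1 per the file headers, and the genome build was ARS-UCD1.2 per the submitters' processing notes. How introns and reads that match several genes were counted, and with which annotation release, is not given in the sources used here. Since the one gene table at hand is of another assembly (ARS-UCD2.0), no coordinates are printed.

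Nuclei with at least 200 genes and under 10% mitochondrially encoded UMIs were kept (105481 to 4006966 UMIs per library). Counts were scaled per nucleus, and clusters were made with scanpy 1.11.5 without members and mitochondrially encoded genes (2000 variable genes, 30 components, 15 neighbours, Leiden resolution 1). A cluster was named from at least 3 markers among its 100 leading genes by fold. Clusters left unnamed were ranked again without nuclei of the best-matching type, a step chosen after seeing the data, which named clusters 0 and 1. No doublet caller was run. Intervals are exact Clopper-Pearson ones at 95% (for ratios of UMI counts, from the binomial share) and cover counting error only.

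Depots were compared over library sums of types with at least 10 nuclei, by exact permutation for shares and with edgeR 4.0.16 in R 4.3.3 (filterByExpr, TMM, quasi-likelihood test, Benjamini-Hochberg threshold 0.05) for genes. The SE is the absolute log2 fold change over the square root of F. With 2 libraries against 1, the lone library is assumed to vary like the others. On simulated 8-fold changes edgeR recovered 8.63% of changed genes among 10664 in whole-library sums, 19% among 4220 in adipocyte-like, 38% among 5232 in progenitor-like and 59.8% among 7477 in blood endothelial-like nuclei. A library at 0 was read as up to 3 counts. Libraries with the same number came from the same animal per the labels. The correlation of their deviations from the depot means across genes was -0.09 in whole-library sums and 0.11 in adipocyte-like sums.

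Named members were the 8 with the highest mean CPM, those outside the core with their partners, called members or the 3 with the smallest p per comparison, the 4 highest and 4 lowest ratios of muscle fibre-like to non-muscle nuclei, and the 2 genes with the most UMIs of each related list. Of the genes this rule names, 2 are not reported here. The members, lists and rules were chosen with earlier results of these data known. Alternatives were DESeq2 1.42.0, other scaling, gene and nucleus filters, other denominators, a marker gate per nucleus, leaving out each library and the animal as a block. Sequences were not used here, nor was a list of nuclear-retained noncoding RNAs, of which 0 features carried a name.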

Additional observations from a re-analysis of the deposited data

Results flagged for a closer look

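In adipocyte-like nuclei the intramuscular library lay below the subcutaneous one of the same animal in both animals, by -0.15 and -2.44 percentage points of ribosomal protein UMIs. In progenitor-like nuclei (0.0718 points) and in blood endothelial-like nuclei (0.22 points) it lay above, in the 1 animal that could be compared. In animal 1 the adipocyte-like sign turns as well with a marker gate per nucleus (SC1 2.42%, IM1 3.08%) and without the 5% of nuclei with the most UMIs (1.82% and 1.86%). The difference between the types was not tested, and the signs of the progenitor-like and blood endothelial-like values turn under settings given below.

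Ribosomal protein UMIs were also present in barcodes that the filters left out. They took 8.30% of UMIs in 7 barcodes of SC1 and 12.7% in 3 of IM1 with at least 10% mitochondrially encoded UMIs, above the 4.92% and 3.45% of the kept nuclei. In 2 such barcodes of SC2 they took 5.54%. In barcodes with under 200 genes they took 5.70% in SC2 (1027 barcodes, where muscle marker genes took 25% of UMIs) and 1.86% in IM2 (17 barcodes, 44 UMIs; 1.35 to 2.49), the latter above the 0.317% of the kept IM2 nuclei.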

How the results depend on the processing

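The intramuscular minus subcutaneous difference of the ribosomal protein share kept its sign under the alternatives run for all nuclei and for the depot means of adipocyte-like nuclei. In the latter IM1 lay above SC1 with a marker gate per nucleus (3.08% against 2.42%) and without the 5% of nuclei with the most UMIs (1.86% against 1.82%), where IM2 lay at 0.318% and 0.356%. Leaving out 1 library gave -4.51 to -1.38 points for all nuclei (the latter without IM2) and -1.99 to -0.602 for adipocyte-like nuclei. The adipocyte-like difference was -0.0496 in cluster 10 alone (SC1 and IM1) and -1.99 in cluster 0 alone, a split chosen after seeing the data. The progenitor-like difference, 0.0718 to 0.637 without 1 subcutaneous library, turned to -0.058 in nuclei with at least 500 genes, to -0.137 under 2% mitochondrial UMIs and to -0.479 with a marker gate per nucleus. The blood endothelial-like one, 0.22 to 3.51 without 1 subcutaneous library, turned to -0.709 with the gate and to -2.08 in cluster 15 alone. The gate put 529 of the blood endothelial-like nuclei with muscle fibre and 266 with adipocyte nuclei.

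With the animal as a replicate block the share differences were -2.95 and -1.29 points (exact p = 0.5, the smallest possible with 2 pairs), and RPL3L had -6.51 (edgeR adjusted p = 0.00458). The block changed no call of a member. No paired or leave-one-out fit was possible for progenitor-like and blood endothelial-like sums because IM1 is their one intramuscular library. Members called in whole-library sums numbered 0 to 1 without 1 library, and 0 with at least 500 genes, under 2% mitochondrial UMIs, without muscle fibre-like and satellite-like nuclei, and without these and unnamed nuclei. In adipocyte-like nuclei they numbered 0 to 57 without 1 library, in progenitor-like nuclei 1 with library totals or no gene filter, and in blood endothelial-like nuclei 0 with DESeq2, no gene filter, at least 500 genes or under 2% mitochondrial UMIs. The cause of these changes was not tested. Calls among all genes ranged from 0 to 444 in whole-library, 21 to 362 in adipocyte-like, 0 to 219 in progenitor-like and 0 to 503 in blood endothelial-like sums.

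In IM2 the depth of 334 ribosomal protein UMIs leaves most single members below what can be measured.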
